A study of Mus musculus with 6 samples.

Results

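The genes described here encode the NF-kB transcription factors and the proteins that switch NF-kB off again, measured in BV2 cells, an immortalised mouse microglial line. The list held 10 genes by name, 5 subunits (Nfkb1, Nfkb2, Rela, Rel and Relb) and 5 feedback inhibitors (Nfkbia, Nfkbie, Nfkbiz, Tnfaip3 and Tnip1). A gene was taken from the deposited expression table where the platform annotation gave a probe set that symbol and no other, and its brightest probe set was used. This gave 9 of the 10 genes, 4 subunits and all 5 inhibitors, out of 22180 genes on the array with 1 symbol. No annotated row carried Nfkb1 alone, so Nfkb1 was not analysed here. Each of the 9 genes had a single probe set, and all 9 were bright enough to be among the 12212 genes tested.

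The study held 6 arrays, 3 in each of 2 groups. The first group (Tel+LPS) received telmisartan, a blood pressure drug that blocks the angiotensin II type 1 receptor and partly activates PPARG, a nuclear receptor, and then lipopolysaccharide (LPS), the bacterial ligand of the receptor TLR4. The second group (Tel+GW+LPS) received the same drugs plus GW9662, an irreversible PPARG antagonist. Per the labels, the cells were wild type, the drugs were on for 2 h before LPS, LPS was on for 1 h, and each experiment lasted 3 h. The labels give no drug doses. All 6 arrays carry telmisartan and LPS, so no value here measures the effect of either, and the comparison asks only what differs when GW9662 is added. As a model, the study rests on 1 immortalised line. The labels call the samples of a group independent without naming separate cultures, so the p-values reflect only how far these samples vary, and that variation may be technical. In bulk RNA, a lower level in every cell and fewer cells with a high level cannot be told apart.

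NF-kB is a dimer of Rel family proteins. In resting cells IkB proteins such as IkB-alpha (Nfkbia) and IkB-epsilon (Nfkbie) hold it in the cytoplasm. TLR4 signalling activates the IkB kinase complex, the IkB proteins are degraded and the dimers enter the nucleus. Among the first genes they induce in macrophages and microglia are those of their own inhibitors: new IkB protein takes the dimers off DNA, and A20 (Tnfaip3), a ubiquitin-editing enzyme, with its partner ABIN1 (Tnip1), shuts down signalling above the kinase. Because these inhibitor transcripts are made quickly after LPS, they are widely used as a readout of NF-kB activity. IkB-zeta (Nfkbiz) differs from the others in being an inducible nuclear member of the IkB family that also serves as a coactivator of secondary genes.

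Promoter windows, each 250 bases before to 50 bases after the transcription start, were read from RefSeq (build GRCm38.p6) and are shown for 4 genes chosen for their measured differences: 2 inhibitors with negative values (Nfkbia and Tnfaip3), and 1 inhibitor (Tnip1) and 1 subunit (Rela) with values near 0. None of these differences passed the test. Capitals mark matches to the kB consensus, the DNA motif that NF-kB dimers bind, on either strand, with overlapping matches joined. The Nfkbia window lies at chr12:55492598-55492897 (minus strand), that of Tnfaip3 at chr10:19015361-19015660 (minus), that of Tnip1 at chr11:54962891-54963190 (minus) and that of Rela at chr19:5637291-5637590 (plus).
Nfkbia: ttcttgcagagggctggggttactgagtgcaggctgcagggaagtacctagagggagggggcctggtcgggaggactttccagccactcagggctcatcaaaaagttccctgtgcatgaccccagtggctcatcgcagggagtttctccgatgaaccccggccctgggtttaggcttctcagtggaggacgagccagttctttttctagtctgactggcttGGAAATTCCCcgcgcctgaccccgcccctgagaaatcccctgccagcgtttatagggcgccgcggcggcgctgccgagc
Tnfaip3: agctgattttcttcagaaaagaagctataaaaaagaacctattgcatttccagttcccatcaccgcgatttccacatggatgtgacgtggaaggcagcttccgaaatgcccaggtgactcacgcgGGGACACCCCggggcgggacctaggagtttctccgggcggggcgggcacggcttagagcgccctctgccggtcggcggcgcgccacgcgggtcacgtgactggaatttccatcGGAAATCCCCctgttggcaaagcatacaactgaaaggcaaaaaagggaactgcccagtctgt
Tnip1: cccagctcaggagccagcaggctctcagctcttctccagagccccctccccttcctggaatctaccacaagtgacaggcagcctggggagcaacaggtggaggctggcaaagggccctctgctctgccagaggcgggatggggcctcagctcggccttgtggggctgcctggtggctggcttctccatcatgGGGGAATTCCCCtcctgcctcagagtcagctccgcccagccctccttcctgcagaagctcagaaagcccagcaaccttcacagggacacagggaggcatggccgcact
Rela: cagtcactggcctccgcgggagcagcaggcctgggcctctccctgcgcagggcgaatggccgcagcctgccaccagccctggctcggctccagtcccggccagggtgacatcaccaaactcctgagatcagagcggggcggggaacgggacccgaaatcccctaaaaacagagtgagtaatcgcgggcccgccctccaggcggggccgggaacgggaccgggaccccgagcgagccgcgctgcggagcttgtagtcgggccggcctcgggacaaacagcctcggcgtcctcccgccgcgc

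The Nfkbia window had 1 match, GGAAATTCCC, 29 to 20 bases before the start. The first Tnfaip3 window had 2 separate matches, GGAAATCCCC at 12 to 3 bases and GGGACACCCC at 125 to 116 bases before the start, and a second window of this gene, at another start, had none. The Tnip1 window had a palindromic stretch, GGGGAATTCCCC, 58 to 47 bases before the start, and the Rela window had no match. Among the windows not shown, Nfkbie had 1 match at 106 to 97 bases, Rel had 1 joined stretch at 92 to 82 bases, and each of the 3 windows of Nfkb2 had at least 1. Counted by window, 4 of 5 windows of the inhibitors and 4 of 5 of the subunits had a match, beside 8.46% of all 32851 windows of the same length. Nfkb2 gave 3 of the 5 subunit windows. Counted by gene, 4 of 4 inhibitors and 2 of 3 subunits with a window had a match. In a list of other NF-kB target genes, 11 of 31 windows had a match. The windows of Nfkb2 overlap in part, and GGGACTTTCC in windows 2 and 3 is the same site. Nfkbiz, Relb and Nfkb1 had no entry in that table. A match is a description of the letters and says nothing on whether a factor was bound.

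The deposited levels are on a log2 scale, after robust multi-array averaging (RMA) by the authors, so a difference of 1 is a factor of 2. Levels of different genes come from different probes and are not compared with each other. Tel+LPS replicate 3 and Tel+GW+LPS replicate 2 had the 2 highest scores on the first principal component of all genes tested, 14.6 and 7.55. The other 4 arrays scored -8.15 to -0.98. The 2 are called the arrays that stood apart by this score alone. The score of Tel+GW+LPS replicate 2 was smaller in size than that of Tel+GW+LPS replicate 1 (-8.15). Its lowest correlation with another array (0.99275) lay within the range of the others (0.9901 to 0.99345). Tel+GW+LPS replicate 2 was the highest of its group for Tnfaip3, Nfkbiz and Nfkbia, so leaving it out by itself lowers that group's mean. The differences of the members and of the named pathway genes are also given without both of these arrays. These 2 arrays also had the highest and lowest median over all probe sets, 6.20 and 6.10, against 6.15 to 6.18 on the other 4 arrays. Of 15 microglia and macrophage markers on the array, 13 were above the level filter of 6.15, among them Csf1r at 11.1 and Itgam at 10.8. Aif1 (6.86) and Cx3cr1 (7.02) lay nearer to the filter, and P2ry12 (5.82) and Tmem119 (6.06), markers of resting microglia in tissue, were below it. Of the 13, only Aif1 was lower with GW9662 without overlap of the groups (-0.20), beside 5.36% of all genes, and it did not pass over all genes tested. The mean log2 level over the 15 markers was 9.88 to 10.0 in Tel+LPS and 9.91 to 9.93 in Tel+GW+LPS. Mean levels of the marker lists of astrocytes, neurons, oligodendrocytes, fibroblasts and lymphocytes were 5.36 to 6.71 on every array and overlapped between groups. Of their markers, 2 of 6, 3 of 6, 2 of 5, 2 of 6 and 1 of 5 were above the filter, the brightest being the neuron marker Syn1 at 8.52.

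Among the members, the lowest differences with GW9662 were those of Tnfaip3 (mean level 1.25-fold lower), Nfkbiz (1.24-fold lower), Nfkbia (1.15-fold lower) and Rel (1.11-fold lower). The other 5 members lay between -0.05 (Nfkbie) and 0.05 (Relb) on the log2 scale. None of the 9 passed the test, which was limma over all 12212 genes with Benjamini-Hochberg adjustment and a threshold of 0.05. Over all genes, 0.0246% were called higher and 0.0164% lower. At an unadjusted p under 0.05, 2 of the 9 members were lower (Tnfaip3 and Nfkbiz) and 0 were higher, where 2.78% and 1.66% of all genes were. The same 2 members were the only ones of the 9 whose groups did not overlap, both lower with GW9662, which held for 5.36% of all genes; the opposite separation, seen in 4.01% of all genes, occurred in 0 members. The plot of levels by array shows all 9 genes.

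**Figure D1:**
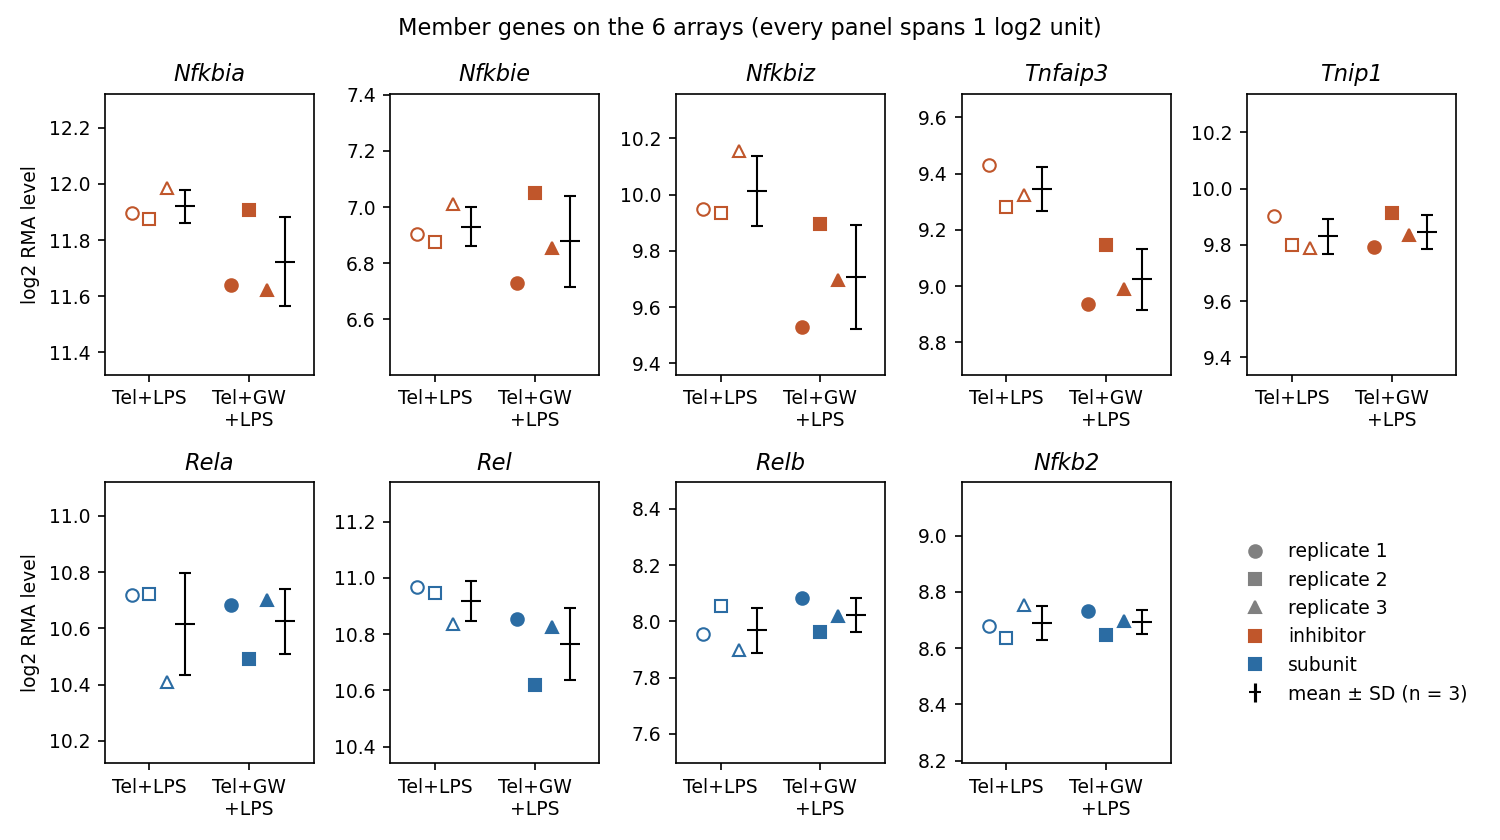
Log2 RMA level (y axis) of the 9 members on each array by group (x axis); open symbols are Tel+LPS, filled symbols Tel+GW+LPS, shapes mark the replicate number, and bars give mean ± SD (n = 3). The 3 Tel+GW+LPS arrays lie below all 3 Tel+LPS arrays for Tnfaip3 and Nfkbiz and overlap them for the other 7 genes.

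Tnfaip3, which encodes the ubiquitin-editing enzyme A20, read 9.43, 9.28 and 9.32 on replicates 1 to 3 of Tel+LPS and 8.94, 9.15 and 8.99 on those of Tel+GW+LPS (probe set 17239597). Every array with GW9662 was below every array without it, by a gap of 0.14 between the nearest pair. The group means were 9.35 ± 0.08 and 9.02 ± 0.11 (SD, n = 3 each), a difference of -0.32 ± 0.08 (SE; 95% interval -0.50 to -0.14). The adjusted p was 0.647 (limma), so the difference did not pass. By unadjusted p (0.00327, limma) the gene ranked 60 of 12212, and 61 genes, Tnfaip3 among them, had a difference at least as low. The difference ranged from -0.38 to -0.28 with any 1 array left out and was -0.39 without both arrays that stood apart. With array weights it was -0.42 at an adjusted p of 0.0339, the only alternative of 17 in which a member passed. That fit gave Tel+LPS replicate 1, the array with the highest Tnfaip3 level, a weight of 5.74, against 0.37 to 1.37 on the other 5 arrays.

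Nfkbiz, the inducible nuclear IkB-zeta, read 9.95, 9.93 and 10.16 in Tel+LPS and 9.53, 9.90 and 9.70 in Tel+GW+LPS (probe set 17330967). The groups did not overlap, but Tel+GW+LPS replicate 2 came within 0.04 of the lowest Tel+LPS array. The means were 10.01 ± 0.12 and 9.71 ± 0.18, a difference of -0.31 ± 0.11 (SE; 95% interval -0.55 to -0.06) at an adjusted p of 0.987 and an unadjusted p of 0.0199 (limma). Leaving out 1 array gave -0.40 to -0.22, the lowest without Tel+GW+LPS replicate 2, and leaving out both arrays that stood apart gave -0.33.

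Nfkbia, which encodes IkB-alpha, the main cytoplasmic inhibitor, read 11.90, 11.88 and 11.99 in Tel+LPS and 11.64, 11.91 and 11.62 in Tel+GW+LPS (probe set 17281219). On 2 of the 3 arrays with GW9662 the level was more than 0.2 below every Tel+LPS array, whereas replicate 2 lay among them, so the groups overlapped. The difference of means was -0.20 ± 0.09 (SE; 95% interval -0.40 to 0.01), with an adjusted p of 0.994 and an unadjusted p of 0.0570 (limma). It was -0.29 without Tel+GW+LPS replicate 2 and -0.26 without both arrays that stood apart, and neither passed (adjusted p = 0.605 and 0.538, limma).

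Nfkbie, the gene of IkB-epsilon, a slower-acting cytoplasmic inhibitor, read 6.90, 6.88 and 7.01 in Tel+LPS and 6.73, 7.05 and 6.85 in Tel+GW+LPS (probe set 17337927). Tel+GW+LPS replicate 2 was its highest array, and the groups overlapped. The difference was -0.05 ± 0.09 (SE; 95% interval -0.26 to 0.16). Without Tel+GW+LPS replicate 1 the sign turned, to 0.02, without replicate 2 it was -0.14, and without both arrays that stood apart it was -0.10.

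Tnip1, the gene of the A20-binding protein ABIN1, read 9.90, 9.80 and 9.79 in Tel+LPS and 9.79, 9.91 and 9.84 in Tel+GW+LPS (probe set 17262855). The groups interleaved, and the difference was 0.02 ± 0.07 (SE; 95% interval -0.14 to 0.17), or -0.04 without both arrays that stood apart. Tnip1 and Tnfaip3 encode partners in the same ubiquitin-editing complex, and whether the 2 genes responded differently was not tested.

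Among the subunits, Rela encodes p65, the main transactivating partner of the canonical dimer. It read 10.72, 10.72 and 10.41 in Tel+LPS and 10.68, 10.49 and 10.70 in Tel+GW+LPS (probe set 17356490). Its lowest arrays were the same 2 that stood apart on the first principal component, 1 in each group, and the other 4 lay within 0.04 of each other. The difference was 0.01 ± 0.10 (SE; 95% interval -0.23 to 0.25), and leaving out 1 array moved it between -0.09 and 0.08. It was -0.03 without both arrays that stood apart.

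Rel encodes c-Rel, a subunit that is itself inducible in myeloid cells and lymphocytes. It read 10.97, 10.95 and 10.84 in Tel+LPS and 10.85, 10.62 and 10.82 in Tel+GW+LPS (probe set 17261107). Tel+LPS replicate 3 fell inside the range of the other group, so the groups overlapped. The difference was -0.15 ± 0.08 (SE; 95% interval -0.34 to 0.04; adjusted p = 0.994, limma). It rested in part on Tel+GW+LPS replicate 2, since it was -0.08 without that array, and it was -0.12 without both arrays that stood apart.

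Relb and Nfkb2 encode the RelB and p100/p52 proteins of the non-canonical pathway, and both are known NF-kB target genes. Relb read 7.96, 8.06 and 7.90 in Tel+LPS and 8.08, 7.96 and 8.02 in Tel+GW+LPS (probe set 17487325), a difference of 0.05 ± 0.07 (SE; 95% interval -0.11 to 0.21). Nfkb2 read 8.68, 8.64 and 8.75 against 8.73, 8.65 and 8.70 (probe set 17359967), a difference of 0.0025 ± 0.06 (SE; 95% interval -0.15 to 0.15). Both pairs of groups overlapped. Without both arrays that stood apart, the difference was 0.05 for Relb and 0.06 for Nfkb2. The intervals of the 4 subunits leave room for differences of up to -0.34 (Rel) and 0.25 (Rela) on the log2 scale, so equal levels were not shown.

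**Figure D2:**
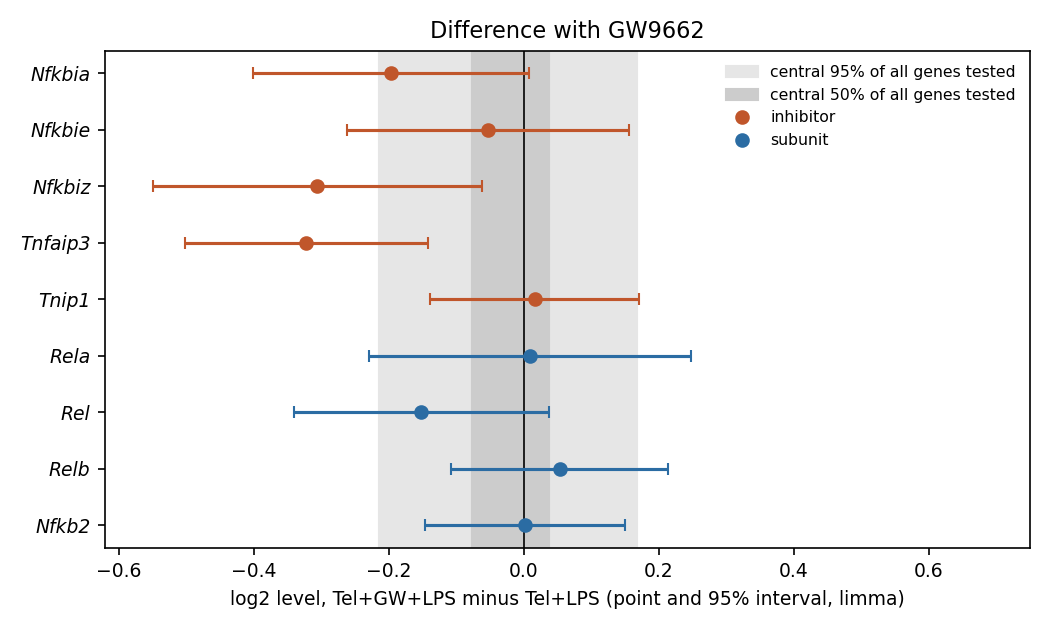
Difference of log2 level, Tel+GW+LPS minus Tel+LPS (x axis), for each of the 9 members (y axis), with the 95% interval of the limma fit; dark and light grey bands hold the central 50% and 95% of all 12212 genes tested. Tnfaip3 (-0.32) and Nfkbiz (-0.31) lie outside the light band, and the 4 subunits, Nfkbia, Nfkbie and Tnip1 lie inside it.

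Set side by side, 4 of 5 inhibitors and 1 of 4 subunits had a negative difference, beside 58.8% of all genes. The median difference was -0.20 for the inhibitors and 0.0059 for the subunits, with -0.02 over all genes tested. With 5 and 4 genes these medians describe the lists only, and no test was made between them.

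Array by array, as the mean deviation from each gene's 6-array mean, the inhibitors lay at 0.10, 0.03 and 0.13 in Tel+LPS and at -0.20, 0.06 and -0.12 in Tel+GW+LPS. The subunits lay at 0.04, 0.05 and -0.06 in Tel+LPS and at 0.05, -0.11 and 0.02 in Tel+GW+LPS. The inhibitor mean minus the subunit mean was 0.05, -0.02 and 0.19 without GW9662 and -0.25, 0.17 and -0.15 with it, so the groups overlapped through Tel+GW+LPS replicate 2. The difference between the group means was -0.15 and was not tested. The SD between replicates was 0.171, which is the spread of single arrays and not of a group mean. The difference was -0.27 without Tel+GW+LPS replicate 2, -0.06 without Tel+GW+LPS replicate 1, -0.09 without Tel+LPS replicate 3, and -0.21 without both arrays that stood apart.

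The members also varied among replicates of a group. On the 2 arrays that stood apart, Nfkbia, Nfkbie and Nfkbiz were the highest of their group and Rela, Rel and Relb were the lowest, in both groups. With each group's mean removed, the pairwise Pearson correlations among Nfkbia, Nfkbie and Nfkbiz (6 arrays) were 0.865 to 0.978. Against the same 3 inhibitors Rela gave -0.856 to -0.772, Rel -0.967 to -0.944 and Relb -0.861 to -0.708, while Nfkb2 gave -0.207 to -0.038. Tnfaip3 gave 0.594 to 0.727 with the 3 inhibitors and 0.955 with Tnip1. Without removal of the group means, Tnfaip3 with Tnip1 gave 0.264. These 6 points share 2 groups and an array that stood apart in each, so the values are descriptions without p-values. The part of this array-to-array pattern in the group differences was not tested beyond the values without those arrays.

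**Figure D3:**
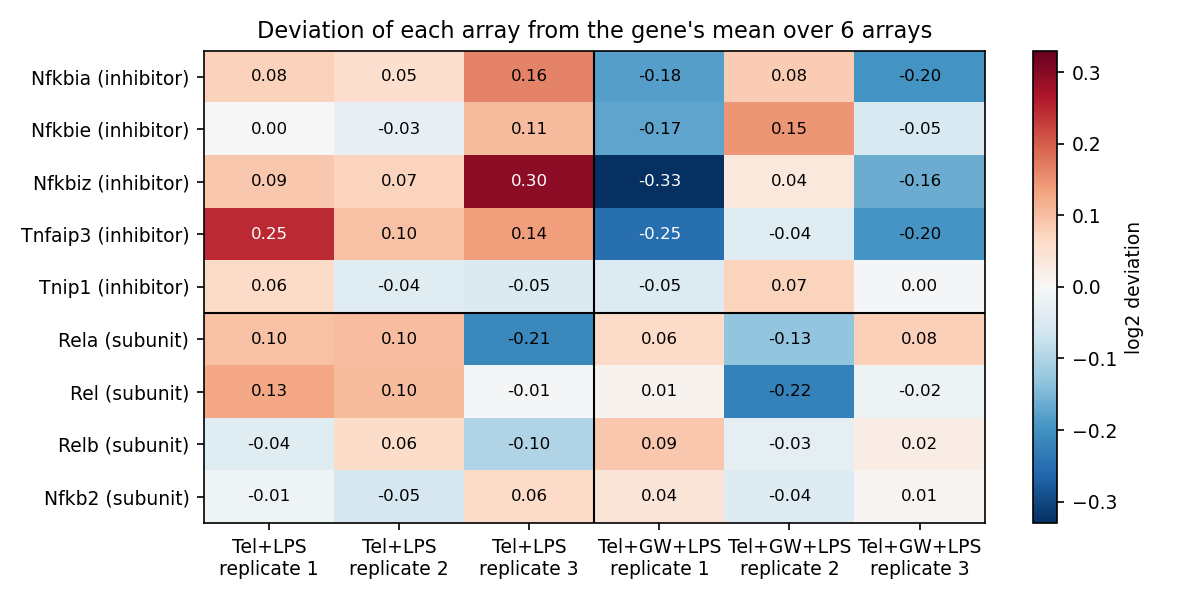
Deviation of each array (columns) from the gene's mean over the 6 arrays (colour and printed value, log2 scale) for the 9 members (rows), inhibitors above the line and subunits below. Nfkbia, Nfkbiz and Tnfaip3 are positive on all 3 Tel+LPS arrays and negative on replicates 1 and 3 of Tel+GW+LPS, while Rela is lowest on Tel+LPS replicate 3 (-0.21) and Tel+GW+LPS replicate 2 (-0.13).

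The genes whose pattern over the 6 arrays was most like that of Nfkbia, by Pearson correlation over all genes tested, were Cdc6, a replication licensing factor (r = 0.998), Smarce1, a chromatin remodelling subunit (0.997), Zfp706 (0.996), the autophagy enzyme gene Atg3 (0.994) and Rcn2 (0.993). For Tnfaip3 they were St3gal1, a sialyltransferase gene (0.992), the transcriptional inhibitor gene Id2 (0.992), 2610001J05Rik (0.991), Tlr2, which encodes a receptor for bacterial lipoproteins (0.990), and Nmd3, a ribosome export factor gene (0.987). Over so few arrays such values are common: 404 genes reached 0.9 with Nfkbia and 133 with Tnfaip3.

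The rest of the pathway was read from 4 lists of 87 genes, and no tested gene of these lists passed in either direction. Among the IkB kinase complex and upstream kinases, 11 of 14 tested genes had a negative difference (median -0.06), with 2 lower and 1 higher at an unadjusted p under 0.05. Over all genes the shares were 58.8% negative, and 2.78% lower and 1.66% higher at that p. Tab3 and Tab2, adaptors of the kinase TAK1, differed by -0.24 ± 0.07 and -0.14 ± 0.06 (SE), and their groups did not overlap. Ikbkg, which encodes the regulatory subunit NEMO, differed by 0.25 ± 0.09, but 8.55 on Tel+LPS replicate 3 exceeded 8.53 on Tel+GW+LPS replicate 3. Without both arrays that stood apart, the differences were -0.27 for Tab3, -0.14 for Tab2 and 0.32 for Ikbkg.

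Among the other IkB family members and nuclear cofactors, 7 of 9 were negative (median -0.04), beside 58.8% of all genes, and 0 of 9 reached an unadjusted p under 0.05. Nkrf, a repressor of NF-kB promoters, differed by -0.10 ± 0.06, Nkap by -0.16 ± 0.12 and Nfkbil1 by 0.08 ± 0.07 (SE). Without both arrays that stood apart, Nkrf differed by -0.14, Nkap by -0.12 and Nfkbil1 by 0.10. Among the genes of ubiquitin editing and IkB turnover, 14 of 20 were negative (median -0.05), and 2 were lower at an unadjusted p under 0.05, beside 2.78% of all genes. These were Peli1, a ubiquitin ligase gene of Toll-like receptor signalling, at -0.30 ± 0.08, and Tnip3, a relative of Tnip1 whose product also binds A20, at -0.29 ± 0.09.

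Tnip3 read 10.06, 10.11 and 10.32 in Tel+LPS and 9.74, 9.91 and 9.95 in Tel+GW+LPS, so its groups did not overlap, whereas those of Tnip1 did. Cyld, the gene of another deubiquitinase that restrains NF-kB, differed by -0.20 ± 0.10 (SE) with overlapping groups. Without both arrays that stood apart, Peli1 differed by -0.30, Tnip3 by -0.24 and Cyld by -0.15.

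NF-kB target genes other than the members had the lowest median of the 4 lists, -0.14. Of 31 tested, 28 were negative and 12 were lower without overlap of the groups, beside 1 that was higher. At an unadjusted p under 0.05, 11 were lower and 1 was higher. Over all genes, 58.8% were negative, 5.36% and 4.01% were lower and higher without overlap, and 2.78% and 1.66% were lower and higher at that p. Tnfaip2 was the 1 higher target in both counts (0.21 ± 0.07, SE), and Ccl3 and Nos2 differed by -0.0012 and -0.0038. These differences were 0.19, -0.002 and -0.0095 without both arrays that stood apart. The mean level of all 36 listed genes was 8.998 to 9.027 on the Tel+LPS arrays and 8.788 to 8.936 on the Tel+GW+LPS arrays. Without both arrays that stood apart the list's median was -0.17.

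Tnf, an early target gene of the LPS response, read 12.71, 12.83 and 12.62 in Tel+LPS and 12.48, 12.50 and 12.47 in Tel+GW+LPS, with no overlap. Its replicates with GW9662 spanned less than those of Tnfaip3 or Nfkbia in the same group. In Tel+LPS its replicates spanned more than those of either gene. The chemokine gene Cxcl10, with the smallest p of the list, read 9.74, 9.98 and 9.76 against 9.02, 9.49 and 9.16 (adjusted p = 0.415, limma). Ccl2 read 11.04, 11.25 and 11.04 against 10.24, 10.77 and 10.59, and Ccl4 read 11.25, 11.31 and 11.26 against 10.69, 11.03 and 10.95.

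Il1b read 8.74, 8.48 and 8.71 in Tel+LPS and 7.55, 8.44 and 8.11 in Tel+GW+LPS, and Il6 read 8.45, 8.33 and 8.73 against 7.65, 8.52 and 7.98. For both cytokine genes the array nearest to the Tel+LPS group was replicate 2 of Tel+GW+LPS, as it was for Tnfaip3, Nfkbiz and Nfkbia, and the Il6 groups overlapped through it. Without both arrays that stood apart, the differences were -0.78 for Il1b, -0.58 for Il6, -0.29 for Tnf, -0.77 for Cxcl10, -0.73 for Ccl2 and -0.45 for Ccl4, against -0.61, -0.45, -0.24, -0.60, -0.58 and -0.38 over all arrays. For each of these genes Tel+GW+LPS replicate 2 was the highest array of its group, so leaving it out by itself lowers that group's mean. None of these genes passed over all genes tested.

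**Figure D4:**
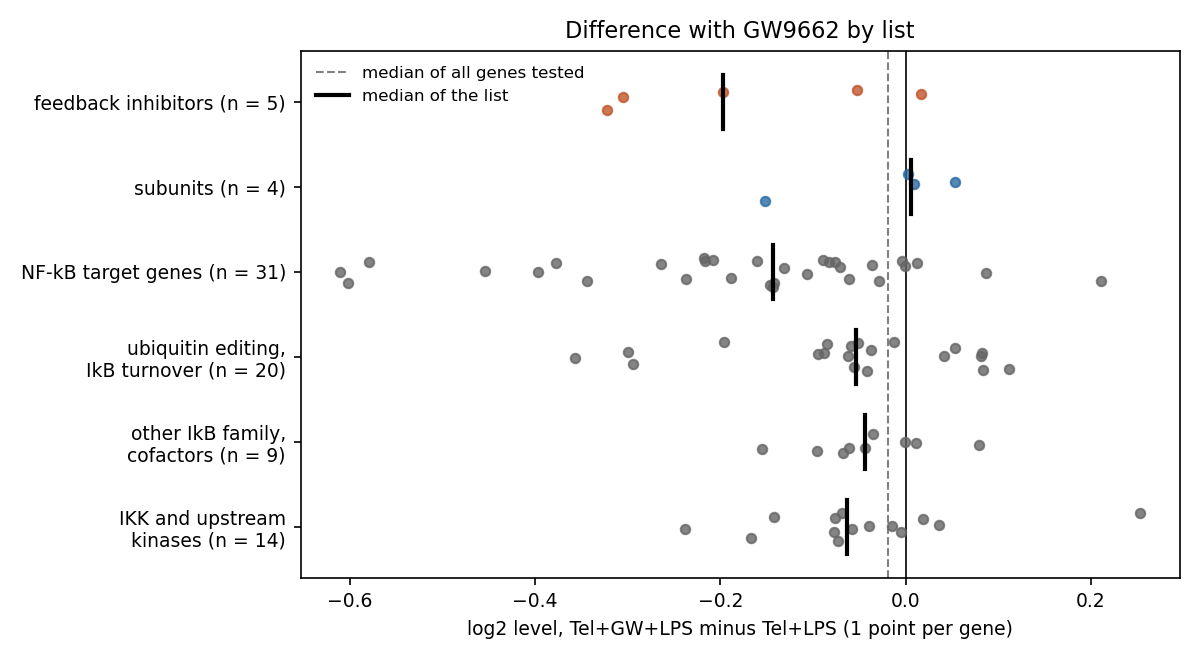
Difference of log2 level, Tel+GW+LPS minus Tel+LPS (x axis), 1 point per tested gene, for the inhibitors, the subunits and the 4 other pathway lists (y axis, number tested in brackets); black bars are list medians and the dashed line is the median of all genes tested (-0.02). The inhibitor median (-0.20) and the target gene median (-0.14) lie to the left of the subunit median (0.0059), and points of all lists overlap.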

How the data were processed

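From each of 6 BV2 samples, 300 ng of total RNA was labelled for an Affymetrix whole-transcript mouse array, per the labels. The labelling protocol names an earlier generation of that array than the file headers do, and the headers' generation was used. The deposited values are log2 levels; the submitters' processing notes name Expression Console and RMA as what the authors used. Power Tools 1.4.1.46 (Affymetrix) ran these steps per the file headers, with background correction, quantile normalization over the 6 arrays and median polish. Quantile normalization hides a shift of most transcripts in 1 direction. For genome build and annotation version the sources used here give nothing.

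From these log2 values, each gene with 1 symbol was represented by its brightest probe set (23521 probe sets, 22180 genes), and the 12212 genes with a mean at or above 6.15, the median of all 41345 probe sets, were fitted with limma 3.58.1 in R 4.3.3 (lmFit, eBayes, group only; Benjamini-Hochberg over all genes, threshold 0.05). Of the 1-symbol probe sets, 23328 had a gene ID in a RefSeq table; 1820 probe sets had several symbols, 16004 were unnamed, and both kinds were left out. The pipeline was tested on simulated arrays with independent noise for each gene and planted differences larger than that of any member. That simulation does not show how the fit fares with smaller differences or with variation shared between genes. All columns had a sample. Array precision is limited by 3 arrays per group.

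The members, gene lists, tests and alternatives were chosen with earlier results of these data known. Named by rule were all members, the 3 pathway genes per list with the smallest p, Tnf, Il1b and Il6, and the 5 genes most correlated with Nfkbia and with Tnfaip3. Tnfaip2, Ccl3 and Nos2 were named outside this rule, for their values, and so were the cell markers given by name. Alternatives were left-out arrays, the replicate number as a block, other scalings, the second deposited table, array weights, other moderation, other level filters and averaging of probe sets.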

Additional observations from a re-analysis of the deposited data

How the results depend on the processing

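Across 17 alternatives, the differences of Tnfaip3 (-0.42 to -0.28), Nfkbiz (-0.40 to -0.22), Nfkbia (-0.29 to -0.15) and Rel (-0.20 to -0.08) kept a negative sign, and so did the inhibitor median (-0.29 to -0.15) and the target gene median (-0.20 to -0.12). Relb stayed positive (0.02 to 0.10). Several alternatives could not change the sign of a member. The replicate block, other moderation, other level filters and averaging of probe sets leave the difference of a tested member as it was. Leaving out arrays could not turn the sign of Tnfaip3 or Nfkbiz either, because their groups did not overlap.

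Members with differences near 0 took the other sign in some settings. Nfkb2 was -0.0035, -0.0241 and -0.0175 without Tel+LPS replicate 1, Tel+LPS replicate 2 and Tel+GW+LPS replicate 1 (highest with 1 array left out, 0.0350), and 0.0571 without both arrays that stood apart. Rela was -0.0947, -0.0200 and -0.0280 without Tel+LPS replicate 3 and Tel+GW+LPS replicates 1 and 3 (highest 0.0763), -0.0279 without both arrays that stood apart, and -0.0426 with array weights. Nfkbie was 0.0217 without Tel+GW+LPS replicate 1 (lowest -0.1382), and a level filter of 7 left it untested. Tnip1 was -0.0041 and -0.0166 without Tel+LPS replicate 3 and Tel+GW+LPS replicate 2 (highest 0.0523), -0.0369 without both arrays that stood apart, and -0.0586 with array weights. The causes were not tested.

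With array weights 1 member passed, against 0 otherwise. The genes called higher and lower over all genes, 3 and 2, became 27 and 22 with array weights, 7 and 9 with median centring, 6 and 6 with trended robust moderation, 0 and 1 with no level filter, and 0 and 0 with no moderation or without both arrays that stood apart. Genes called lower were 5 with repeated quantile normalization and 5 with a level filter of 7. With 1 array left out, 0 genes were called higher and 0 to 2 lower. The median of the other IkB family and cofactors (-0.0443) was -0.0112 with repeated quantile normalization and -0.0808 to -0.0129 with 1 array left out.

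Deviations of same-numbered arrays correlated at 0.294, -0.451 and -0.122, and those of differently numbered arrays at -0.415 to 0.444. So few arrays could not settle whether same-numbered arrays were handled together. With the replicate block, 0 genes were called higher and 0 lower (379 at an unadjusted p under 0.05, 543 without the block). With 3 arrays per group, member differences inside the intervals given above could not be resolved.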
